A study of Homo sapiens with 2 samples.

Results

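The FOS and JUN genes encode the core of AP-1, a transcription factor made of pairs of related proteins. The family analysed here comprised 4 FOS genes (FOS, FOSB, FOSL1 and FOSL2) and 3 JUN genes (JUN, JUNB and JUND), 7 of the 19775 genes measured. They were chosen by name, with their signals in A549/DDP and A549 cells already known, and their differences between these cells are therefore given as descriptions. All 17 array features that matched a single gene of the family were included. Such a feature, called a probe set, is a group of short probes read together as 1 value. The 7 genes all reached the level taken here as expressed, along with 13159 genes in all.

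RNA was compared between A549/DDP, a cisplatin-resistant subline, and A549, the human lung adenocarcinoma line from which it was derived. Each line was measured on 1 Affymetrix HG-U133 Plus 2.0 array, and the labels state no drug treatment, only that the cells of both lines were lifted with trypsin before RNA was extracted. The label of the resistant cells also carries a remark on overexpressed ZNF300 that its title does not share, and the title was followed. On these arrays ZNF300 had a log2 signal of 5.76 in the array labelled A549/DDP and 7.59 in the A549 array. The study gives ZNF300 the other direction, and every direction below is therefore that of the array labelled A549/DDP. No spread between replicates could be had from 1 array per line, and the line, its culture, its harvest and its array cannot be told apart.

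For GAPDH, the 3′ probe set over the 5′ probe set gave a ratio of 1.02 in the array labelled A549/DDP and 1.05 in the A549 array. For ACTB, whose ratio was much higher on both, it was 3.70 in the array labelled A549/DDP and 4.21 in the A549 array. Of the epithelial markers, the keratins KRT7, KRT8 and KRT18 had log2 signals from 11.99 to 14.50 in the array labelled A549/DDP and from 10.83 to 13.12 in the A549 array. The log2 differences over the 3 probe sets of KRT7 ran from -4.80 to -0.07. CDH1, the E-cadherin gene, had 2.52 in the array labelled A549/DDP and 7.30 in the A549 array, and EPCAM had 4.68 in the array labelled A549/DDP and 7.05 in the A549 array, so that both were under the floor defined below in the array labelled A549/DDP alone. KRT19 was under it on both. The leukocyte markers PTPRC and CD14 and all 3 endothelial markers were also under it on both, whereas CD3E was at 6.93 in the array labelled A549/DDP and, under the floor, at 5.72 in the A549 array. Of 4 fibroblast markers, COL1A1 was at 9.77 in the array labelled A549/DDP and 8.79 in the A549 array, with log2 differences from -0.47 to 0.98, before the floor, over its 3 probe sets. DCN was at 6.11 in the array labelled A549/DDP and 6.59 in the A549 array, and COL3A1 and PDGFRB were under the floor on both. Whether these differences had a part in those of the FOS and JUN genes was not tested.

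AP-1 works as a dimer. FOS proteins cannot pair with themselves and need a JUN partner, whereas JUN proteins can also pair with each other, and the dimers bind a short DNA element in the promoters and enhancers of genes for proliferation, matrix breakdown and inflammation. FOS, FOSB, JUN and JUNB are immediate-early genes, which are switched on within minutes by growth factors or stress through the MAP kinases and whose mRNAs decay quickly. FOSL1 is known for its abundance in many epithelial tumours with active RAS signalling.

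Transcripts of most of the family were lower in the array labelled A549/DDP. Of the 7 genes, 6 had a lower signal than in A549, and their median log2 difference was -1.40, a fold of 2.64. FOSB and FOS were past the 3-fold threshold that the study used, both lower, and 0 members were at least 3-fold higher. Of all 13159 expressed genes 6531 were lower, 2.18% were lower and 2.14% higher by 3-fold or more, and the median difference was 0.00. At 2-fold, 5 of the 7 members were lower and 0 higher, against 7.4% of all expressed genes lower and 807 of the 13159 higher. Read per probe set, 16 of the 17 had a signal above the floor on at least 1 array, of which 14 were lower and 2 higher. The floor is the median signal of an array, 6.18 for A549/DDP and 6.22 for A549 on the log2 scale. Values under it were raised to it, and a fold that uses such a value is a lower bound.

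**Figure D1:**
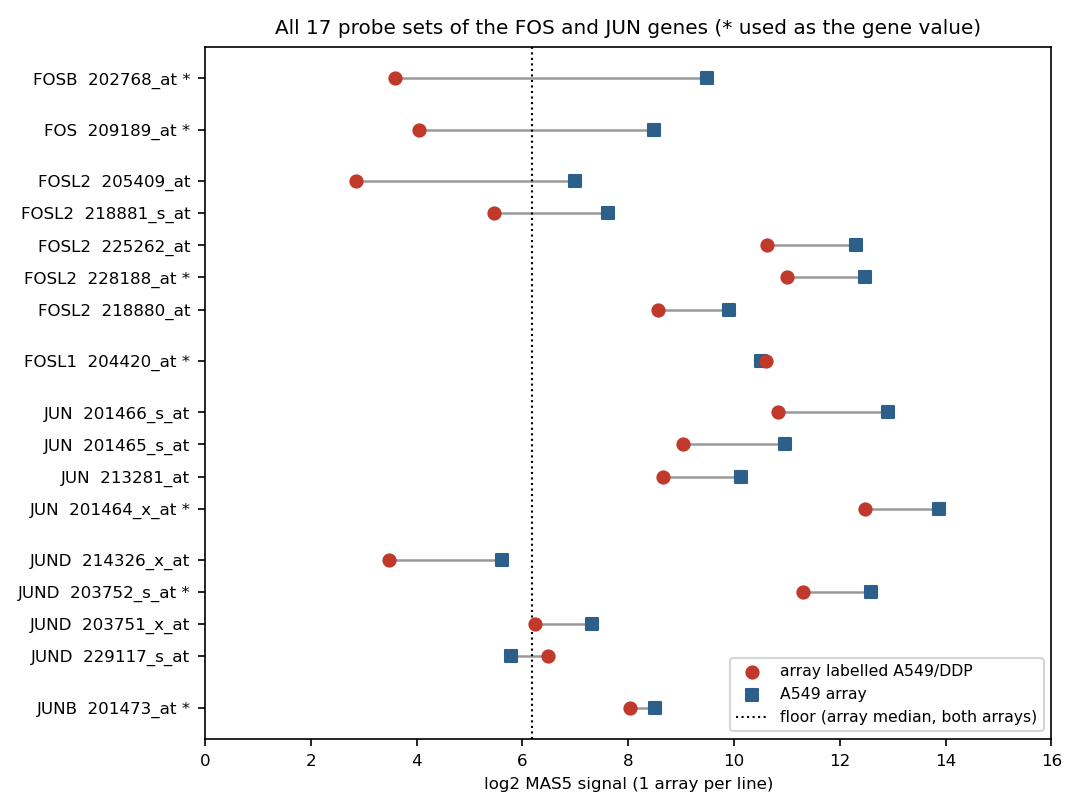
Log2 MAS5 signal of every probe set of the 7 genes in the array labelled A549/DDP (circles) and in the A549 array (squares), with 1 array per line. The 2 probe sets with the circle to the right are that of FOSL1, where the points nearly touch, and 229117_s_at of JUND, which lies around the dotted floor.

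FOSB had the largest difference of the family. Its product is a FOS protein with a strong activation domain. Its only probe set, 202768_at, gave a log2 signal of 3.58 in the array labelled A549/DDP and 9.49 in the A549 array. The first of these values lay well under the floor, so FOSB was at least 9.90-fold lower (log2 difference -3.31, and -5.91 without the floor). By this bound it stood at place 23 from the lowest among the 13159 expressed genes. That place reflects its A549 signal above the floor, not the full size of the difference.

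FOS, the founding gene of the family and the cellular form of a viral oncogene, came next. Its only probe set, 209189_at, read 4.05 in the array labelled A549/DDP and 8.50 in the A549 array on the log2 scale. It was at least 4.96-fold lower (log2 difference -2.31, and -4.45 without the floor). By this bound it stood at place 75, again set by its A549 signal. Thus FOS and FOSB were both clearly above the floor in A549 and both under it in the array labelled A549/DDP. As each was read by a single probe set, no second reading of the same array bears on either.

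The promoters of these genes are shown because FOS and FOSB differed most. Each window runs from 250 bases before the RefSeq start of the gene to 50 bases after it (GRCh38.p14, plus strand for both, chr14:75278578-75278877 for FOS and chr19:45467746-45468045 for FOSB). Capitals mark the letters TGACG, the core of the cyclic AMP response element (CRE) that CREB binds, and TATAAA, the TATA box.
FOS: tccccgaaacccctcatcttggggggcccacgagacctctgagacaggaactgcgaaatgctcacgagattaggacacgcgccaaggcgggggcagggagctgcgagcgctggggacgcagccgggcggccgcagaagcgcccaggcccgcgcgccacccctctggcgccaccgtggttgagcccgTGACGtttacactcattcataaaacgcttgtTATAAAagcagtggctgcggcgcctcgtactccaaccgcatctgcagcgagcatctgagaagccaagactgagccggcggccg
FOSB: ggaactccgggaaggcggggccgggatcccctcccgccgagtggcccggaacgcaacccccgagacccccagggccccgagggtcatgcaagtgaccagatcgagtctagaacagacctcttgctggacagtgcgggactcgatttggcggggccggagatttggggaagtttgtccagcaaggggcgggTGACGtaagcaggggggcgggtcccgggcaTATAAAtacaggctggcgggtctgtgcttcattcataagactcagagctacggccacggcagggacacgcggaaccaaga
Both windows held the CRE core and the TATA box on the coding strand, at 64 and 33 bases before the start in FOS and at 60 and 30 bases before it in FOSB. The letters of the TATA box were in 11.5% of 35116 promoter windows of this length, read on both strands.

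FOSL2 encodes FRA-2, a FOS protein that lacks the strong activation domain of FOS. It was read by 5 probe sets, and all 5 were lower in the array labelled A549/DDP. The brightest, 228188_at, had a log2 signal of 11.00 in the array labelled A549/DDP and 12.47 in the A549 array, which is 2.77-fold lower (log2 difference -1.47) and under the threshold. Probe set 225262_at read 10.63 in the array labelled A549/DDP and 12.32 in the A549 array, 3.22-fold lower and past the threshold. Probe set 218880_at read 8.56 in the array labelled A549/DDP and 9.90 in the A549 array, 2.53-fold lower. These 3 probe sets were above the floor on both arrays and gave similar differences. The dimmer pair fell under the floor in the array labelled A549/DDP. Of these, 218881_s_at had 5.46 in the array labelled A549/DDP and 7.62 in the A549 array, at least 2.70-fold lower. Probe set 205409_at had 2.85 in the array labelled A549/DDP and 6.99 in the A549 array, at least 1.75-fold lower.

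FOSL1, which encodes FRA-1, was the exception in the family. Its probe set 204420_at read 10.60 in the array labelled A549/DDP and 10.51 in the A549 array, 1.07-fold higher (log2 difference 0.09). Both values were far above the floor, so that the floor did not enter. A small difference on 1 array per line does not show that the level was the same in the cells.

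JUN, the partner that FOS proteins pair with most, was lower by each of its 4 probe sets. Probe set 201464_x_at, the brightest and therefore the one used for the gene, read 12.47 in the array labelled A549/DDP and 13.87 in the A549 array, 2.64-fold lower (log2 difference -1.40). Probe set 201466_s_at read 10.84 in the array labelled A549/DDP and 12.90 in the A549 array, 4.19-fold lower. Probe set 201465_s_at read 9.03 in the array labelled A549/DDP and 10.96 in the A549 array, 3.82-fold lower. Probe set 213281_at read 8.66 in the array labelled A549/DDP and 10.13 in the A549 array, 2.77-fold lower. All values were far above the floor, and the log2 difference averaged -1.72 ± 0.33 (SD over 4 probe sets of the same arrays, which are not replicates). JUN was therefore on either side of the 3-fold threshold depending on the probe set, with 2 of the 4 past it. An ending in _x_at or _s_at marks probes that can bind related transcripts as well.

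JUND encodes the JUN protein that many resting cells keep, and it is the one bound by menin. Its brightest probe set, 203752_s_at, read 11.30 in the array labelled A549/DDP and 12.58 in the A549 array, 2.43-fold lower (log2 difference -1.28). Probe set 203751_x_at had 6.24 in the array labelled A549/DDP and 7.32 in the A549 array, 2.11-fold lower. The other two were dim. Probe set 229117_s_at had 6.49 in the array labelled A549/DDP and 5.78 in the A549 array, the opposite direction, and 214326_x_at was under the floor on both, with 3.48 in the array labelled A549/DDP and 5.62 in the A549 array. The bright signal thus came from 1 probe set, and the dim ones did not share a direction.

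JUNB, whose product often restrains the growth-promoting action of JUN, had a small difference. Its only probe set, 201473_at, read 8.04 in the array labelled A549/DDP and 8.51 in the A549 array, 1.38-fold lower (log2 difference -0.47). It was under both the 3-fold and the 2-fold threshold.

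The promoter windows of the JUN genes and of FOSL2 are shown for comparison with those of FOS and FOSB. They come from RefSeq (GRCh38.p14). JUN is given whole (chr1:58783998-58784297, minus strand). The others are given as the 55 bases around the CRE core nearest to the start, at chr2:28392767-28392821 (plus strand) for FOSL2, chr19:18281679-18281733 (minus strand) for JUND and chr19:12791324-12791378 (plus strand) for JUNB. Capitals mark TGACG or its reverse complement CGTCA and, in JUN, also TGACATCA, the variant of the element that pairs of JUN with ATF2 are known to bind.
JUN: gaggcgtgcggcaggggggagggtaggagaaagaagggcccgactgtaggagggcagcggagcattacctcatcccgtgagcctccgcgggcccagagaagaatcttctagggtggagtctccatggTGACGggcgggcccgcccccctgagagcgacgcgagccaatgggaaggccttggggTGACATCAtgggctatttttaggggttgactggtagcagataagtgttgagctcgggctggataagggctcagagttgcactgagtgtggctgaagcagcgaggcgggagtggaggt
FOSL2: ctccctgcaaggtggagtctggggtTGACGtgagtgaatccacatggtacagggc
JUND: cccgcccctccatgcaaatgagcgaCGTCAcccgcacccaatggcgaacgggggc
JUNB: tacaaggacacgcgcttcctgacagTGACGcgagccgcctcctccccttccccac
Read on both strands, TGACG was found in the windows of all 6 members listed in the RefSeq table (the window of FOSL1 was not analysed here), against 24.6% of all 35116 promoter windows. It lay 123 bases before the start in JUN, 66 and 201 in FOSL2, 137 in JUNB and 86, 197 and 200 in JUND. The matches 197 and 200 bases before the start of JUND overlap, since they are the strands of 1 full CRE, TGACGTCA, which was in 1.85% of all windows. The JUN-type site TGACATCA was found 67 bases before the start in JUN, and in 2.61% of all windows. The AP-1 site TGANTCA was in 1 of the 6 windows, that of FOSL2, from position 5 after the start, and in 7.71% of all windows. The CArG box, to which SRF binds, was in 0 of the 6 windows and in 1.29% of all. Sequence farther from the start was not searched, so this 0 does not show that the genes lack a CArG box. A match says only that these letters are present. The letters of the TATA box were also in the window of JUNB, 31 bases before the start, so that FOSB and FOS, the members with the largest differences, shared both motifs with JUNB, whose difference was small.

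**Figure D2:**
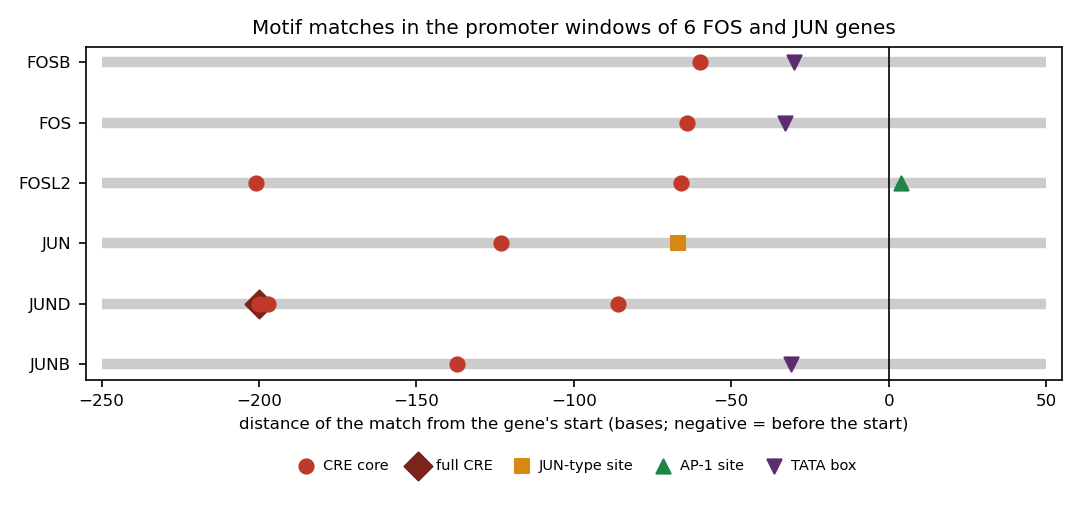
Position of each motif match in the promoter windows of 6 members, in bases from the RefSeq start of the gene, on either strand, with the genes in the order used for the signals. The CRE core is present in each window, 60 to 66 bases before the start in FOSB, FOS and FOSL2 and farther from it in JUN, JUND and JUNB.

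Set in order by the log2 difference, the family ran from FOSB (-3.31) and FOS (-2.31) through FOSL2 (-1.47), JUN (-1.40) and JUND (-1.28) to JUNB (-0.47) and FOSL1 (0.09). As a rough guide to these steps, the scatter of the log2 difference among the probe sets of a gene was taken, before the floor. Its SD had a median of 0.38 in the 6570 genes read by 2 or more probe sets above the floor. This scatter comes from the same 2 arrays and does not measure the error of a step between genes. FOSL2 and JUN differed by 0.07 and JUN and JUND by 0.12, both less than this scatter, so their order is not settled. The other neighbouring members were at least 0.56 apart, but their order did not hold under every setting. JUND was at -0.18 with the median over its probe sets, against -0.47 for JUNB. FOSB was at -0.85 with the floor at the 75th percentile, against -1.47 for FOSL2. Before the floor, the SD was 1.09 over 3 probe sets of JUND and 1.15 over 5 of FOSL2, more than the median of 0.38. In the array labelled A549/DDP, FOSB and FOS were both raised to the floor, so the step between them is that of their A549 signals. Without the floor the order was the same as in the main setting.

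**Figure D3:**
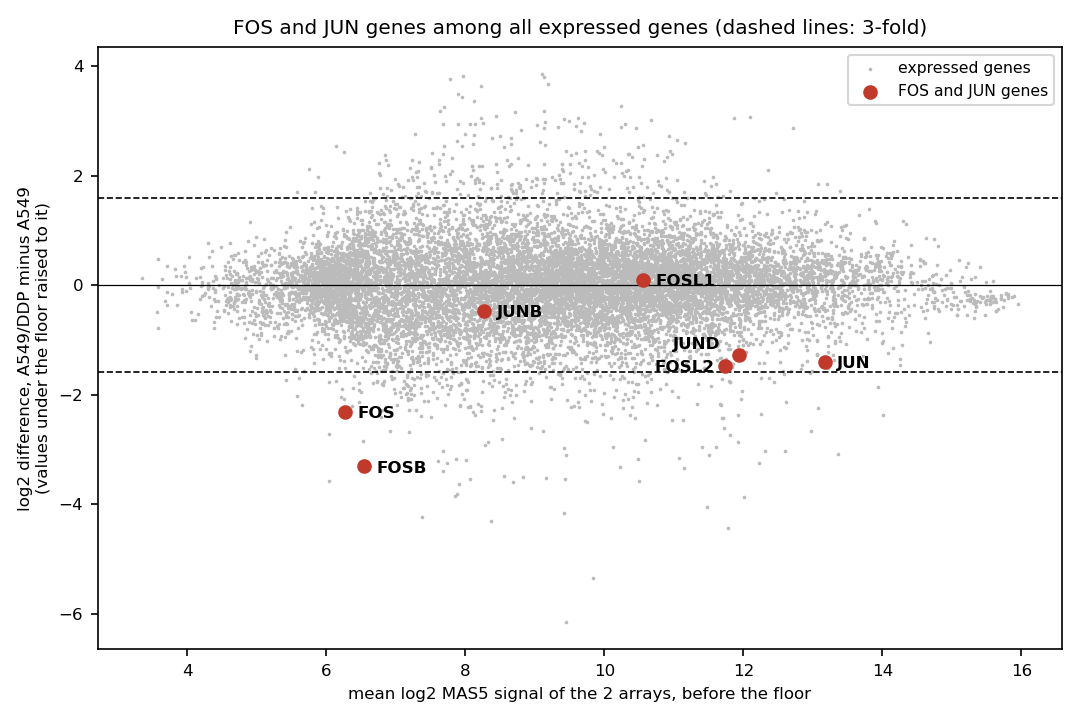
Log2 difference (A549/DDP minus A549) against mean log2 signal for 13159 expressed genes (grey) and the 7 members (red), 1 array per line. FOSB and FOS lie under the lower dashed line of 3-fold, FOSL2, JUN and JUND just above it at -1.47 to -1.28, and FOSL1 on the line of no difference.

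Since a gene has only 2 values here, likeness to a member could be measured only by the log2 difference. For FOS and FOSB this difference is a bound, because their signals in the array labelled A549/DDP were under the floor, so no genes are named as nearest to them.

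The genes around AP-1 were examined next. Other proteins of the same bZIP fold can pair with FOS proteins, with JUN proteins or with both. Of 8 expressed genes for such partners 2 were lower by 3-fold or more, against 2.18% of all expressed genes, and 0 higher, and the median log2 difference was -0.16. ATF3, a stress-induced repressor, read 7.34 in the array labelled A549/DDP and 11.50 in the A549 array, 17.8-fold lower, with its other probe set above the floor at -1.85 on the log2 scale. MAFF, a small MAF protein without an activation domain, read 10.26 in the array labelled A549/DDP and 12.42 in the A549 array, 4.48-fold lower, with its other probe set at -1.44. With the dimmest of its usable probe sets for each gene, 1 partner was past 3-fold. JDP2, a repressor of AP-1, was 1.64-fold lower, while ATF2, a lasting partner of JUN, was 1.19-fold higher and BATF3 1.22-fold higher. The partners thus went both ways, with the largest differences in the lower direction.

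The factors that switch on FOS and JUN genes did not share their direction. Of 10 expressed genes 0 passed 3-fold, 7 were higher and 3 lower, and the median log2 difference was 0.11. By 3-fold or more, 2.18% of all expressed genes were lower and 2.14% higher, so 0 in so short a list is near that share. SRF, which holds the serum response element of FOS together with the ELK proteins, had a log2 signal of 7.75 in the array labelled A549/DDP and 9.28 in the A549 array, 2.89-fold lower by its single probe set and the largest difference of the list. MRTFA, an actin-sensing cofactor of SRF, was 1.93-fold higher, but its 3 probe sets ran from -0.14 to 1.35. ELK3 was 1.54-fold higher, ELK4 1.41-fold lower and CREB1 1.07-fold higher, but the 7 probe sets of CREB1 ran from -0.41 to 1.01. MEF2D, which acts on the JUN promoter, was 1.91-fold lower, and its 3 probe sets ran from -3.11 to -0.58 before the floor.

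Among the kinases upstream of AP-1, 11 were expressed, 0 passed 3-fold, 6 were lower and 5 higher, and the median log2 difference was -0.04. Here too 0 is near the share of all expressed genes (2.18% lower and 2.14% higher). MAPK7, the kinase ERK5, had a log2 signal of 9.40 in the array labelled A549/DDP and 8.10 in the A549 array, 2.46-fold higher. RPS6KA3, the kinase RSK2 that phosphorylates FOS and CREB1, read 11.05 in the array labelled A549/DDP and 12.24 in the A549 array, 2.28-fold lower. The JUN kinases MAPK8 and MAPK9 were 1.07-fold higher and 1.03-fold lower. Transcripts of the kinases say nothing of their activity, which was not measured on the arrays.

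Genes that remove or bind the members' products went both ways, with list medians near 0. In the list of protein turnover and cofactors 8 genes were expressed and 0 passed 3-fold, with a median of -0.17. In a list of this length 0 is near the share of all expressed genes (2.18% lower and 2.14% higher). DET1, part of a ubiquitin ligase for JUN, was 2.05-fold lower, its partner COP1 1.09-fold higher, FBXW7 1.33-fold lower, and MEN1, which encodes the JUND-binding menin, 1.39-fold higher. The 4 probe sets of FBXW7 ran from -1.96 to -0.24 on the log2 scale before the floor. Of 7 expressed genes listed for the binding or decay of AU-rich mRNAs such as that of FOS, 0 passed 3-fold, with a median of 0.18. This 0 is likewise near the share of all expressed genes. HNRNPD, the decay factor AUF1, was 1.85-fold higher, but its 6 probe sets ran from -0.26 to 0.89 on the log2 scale. ZFP36L2 was 1.54-fold lower, and its 3 probe sets ran from -4.57 to -0.62 before the floor. ZFP36 was 1.13-fold higher.

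Known target genes of AP-1 were mostly lower. Of 19 expressed targets, 15 were lower and 4 higher, and the median log2 difference was -0.68. By 3-fold or more, 4 were lower and 0 higher. The lower count was 2 without _x_at and _s_at probe sets and 2 with the dimmest usable probe set of each gene. Without a floor, where all 23 measured targets counted, 5 were lower and 3 higher. Of all 19775 measured genes, 1935 were then lower and 1720 higher by 3-fold or more. With the floor at the 25th percentile 4 targets were lower and 1 higher, beside 860 lower and 673 higher of all genes expressed at that floor. At the main floor, 6531 of all 13159 expressed genes were lower, and 2.18% by 3-fold or more. The cytokine genes led the list, with CXCL8 at 10.07 in the array labelled A549/DDP and 13.94 in the A549 array (14.7-fold lower). IL6 read 9.50 in the array labelled A549/DDP and 12.65 in the A549 array (8.88-fold lower). Both remained bright in the array labelled A549/DDP. IL11 read 6.43 in the array labelled A549/DDP and 8.31 in the A549 array (3.68-fold lower), with its other probe set at -0.15. SPP1, which encodes the secreted matrix protein osteopontin, read 13.01 in the array labelled A549/DDP and 14.87 in the A549 array (3.63-fold lower), with its other probe set at -1.31.

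Other targets were lower by less. TIMP1, an inhibitor of matrix proteases, was 2.98-fold lower, the collagen cross-linking enzyme LOX 2.24-fold, the EGFR ligand HBEGF 2.12-fold, the plasminogen activator PLAU 2.10-fold and the gap junction gene GJA1 2.09-fold. The highest of the list were the chemokine CCL2 (1.53-fold higher), EZR (1.46-fold), CCND1 (1.32-fold) and BCL2L11 (1.27-fold). The value of EZR was the smallest of its 5 probe sets, which ran from 0.54 to 3.36 on the log2 scale before the floor. For BCL2L11 the direction depended on the probe set, as its 6 probe sets ran from -1.08 to 1.67 on the log2 scale before the floor. The collagenase gene MMP1 had 6.22 in the array labelled A549/DDP and 4.22 in the A549 array, just above the floor and under it, and counts as lower (log2 difference 0.00) only because the A549 value was raised to its floor. MMP3, MMP10, MMP13 and NTS were under the floor on both. Many of these targets are also controlled by other factors, among them NF-κB, and which factor acted on them was not measured.

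**Figure D4:**
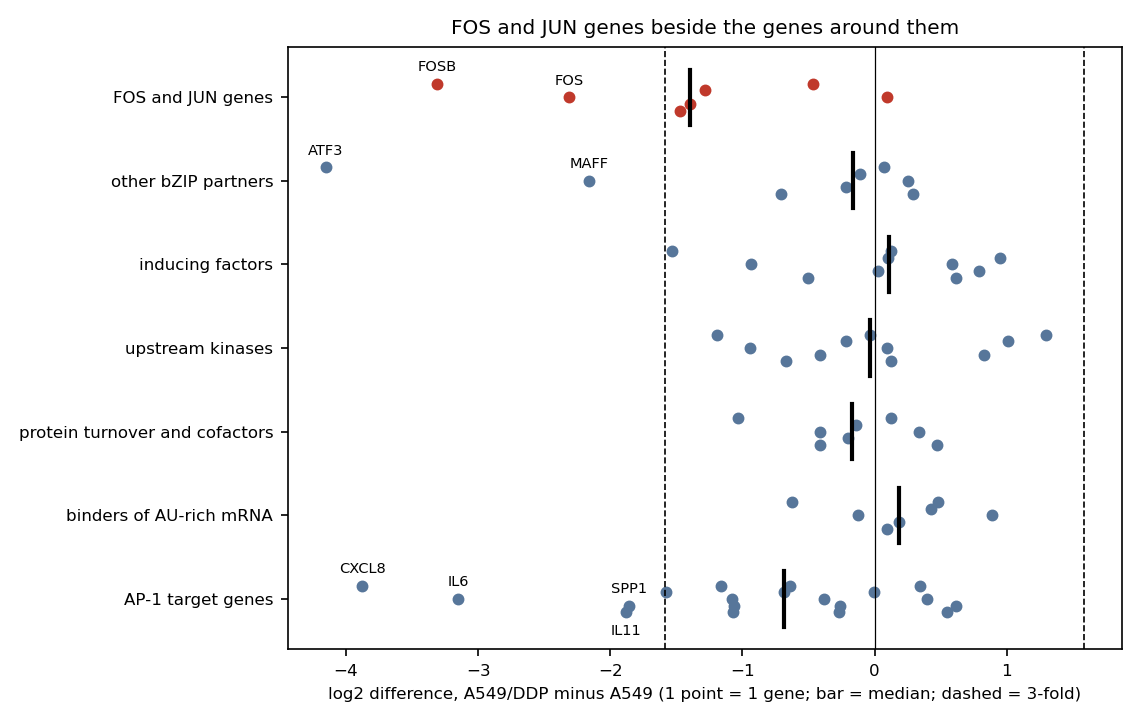
Log2 difference (A549/DDP minus A549) of each expressed gene in the family and in the 6 lists around it, with bars at the medians. The family (-1.40) and the AP-1 targets (-0.68) have the lowest medians, and the other 5 lists lie between -0.17 and 0.18.

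The values of FOS and FOSB depended on how low signals were treated, and those of JUN, JUND and FOSL2 on the probe set. FOS, FOSB, JUNB and FOSL1 have 1 probe set each, so the choice of probe set could not move them, and a lower or absent floor can only enlarge the differences of FOS and FOSB. Under the 3 other scalings, which could move them, FOS and FOSB remained past 3-fold. With the floor at the 75th percentile FOSB was at -0.85 and FOS and JUNB had no value because both their signals were under it. JUN reached -2.00 with the median over its probe sets and -2.07 with the probe set of largest difference, both past the threshold. JUND was at -0.18 with the median over its probe sets and at 0.27, the only change of sign in the family, with the dimmest of its usable probe sets. FOSL2 ranged from -1.69 to -0.81. JUNB stayed between -0.47 and -0.42 and FOSL1 between 0.08 and 0.13. Scaling the arrays in 3 other ways changed none of the 7 directions.

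**Figure D5:**
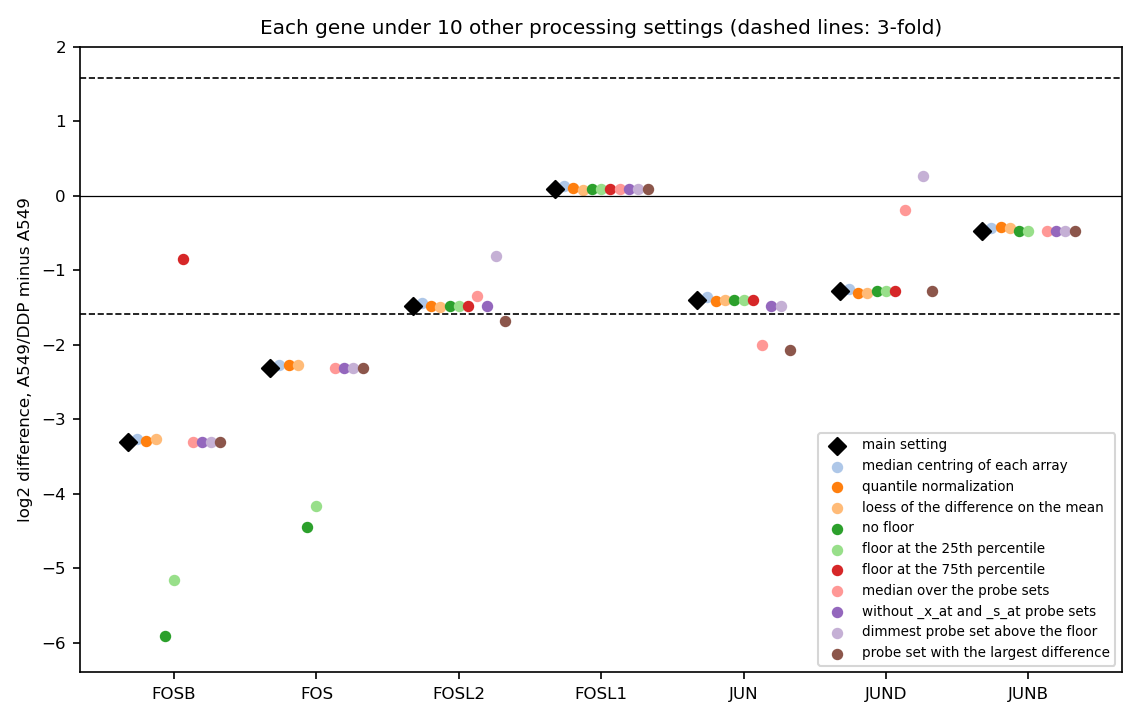
Log2 difference of each member under the main setting (black diamonds) and under 10 alternatives (coloured circles), with dashed lines at 3-fold. FOSB and FOS move with the floor, JUND, JUN and FOSL2 with the choice of probe set, while FOSL1 and JUNB, each read by 1 probe set, could move only with the scaling or the floor.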

How the data were processed

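Total RNA of A549/DDP and A549 cells was labelled with a 3′ IVT kit and hybridised to 1 Affymetrix HG-U133 Plus 2.0 array per line. The authors deposited log2 signals of 54675 probe sets. MAS5 and affy stand in the processing notes of the submitters, with no version, whereas SCAN and UPC stand in the methods of the study. The values were taken as MAS5, as their linear mean after trimming 2% at each end was 500.1 on both arrays. A deposited table of folds, with 4 columns of signals and calls for A549-LV5 and A549-ZNF300 cells, was not used because these cells are not samples of the series.

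Probe sets with 1 annotated gene (41097, of which 41043 matched a RefSeq symbol in GRCh38.p14) were used, and 1801 with several genes and 11777 with none listed were not. A gene took its brightest probe set, values under the array median were raised to it, and a gene under it on both arrays had no fold. The threshold was 3-fold, as in the study, and no p-value was computed. The step from probe sets to genes was tested on simulated data, with shifts added only to genes well above the floor. All probe sets of a gene were shifted alike. The test therefore did not cover members under the floor or probe sets that disagree. The members and gene lists were chosen with earlier results of these data known. The rule for named genes took all members, each list gene past 3-fold, in lists without such a gene the 2 with the largest difference, and the 5 genes nearest to FOS and to FOSB, which are not given because the differences of FOS and FOSB are bounds. Other list genes were named for their roles after their values were seen. Some listed genes are not reported here. Alternatives were 3 scalings (median centring, quantile, and loess in statsmodels 0.14.6 with a span of 0.3), other floors, probe set choices and thresholds, run in Python 3.11.15.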

Additional observations from a re-analysis of the deposited data

How the results depend on the processing

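Of 12 alternatives, 8 left the count of members at least 3-fold lower at 2 or, with the median over probe sets, at 3. It was 0 with the floor at the 75th percentile, where FOS had no value and FOSB was shortened by the floor, 4 with the probe set of largest difference, 5 at 2-fold and 1 at 5-fold. No member was at least 3-fold higher under any of the 12. The median of the members was -0.81 when each gene took the dimmest of its usable probe sets and otherwise moved by less than 0.38. Without _x_at and _s_at probe sets JUND had no value. With the probe set of largest difference for each gene, 404 of all expressed genes were lower and 367 higher by 3-fold or more. In the main setting these counts were 287 lower and 281 higher. Counts over all expressed genes moved most with the floor, which also sets how many genes are expressed, and with the threshold. Without a floor, where all 19775 measured genes counted, they were 1935 lower and 1720 higher. They were 860 lower and 673 higher with the floor at the 25th percentile, and 122 lower and 127 higher with it at the 75th percentile. At the main floor, with 13159 genes expressed, they were 974 lower and 807 higher at 2-fold, and 74 lower and 79 higher at 5-fold. The median of the AP-1 targets ranged from -1.06 to -0.25 and was negative under all 10 alternatives. The median of the factors that switch on FOS and JUN genes ranged from -0.08 to 0.60 and had no settled sign. Nor had that of the upstream kinases (-0.16 to 0.03) or of the genes for AU-rich mRNA binding or decay (-0.13 to 0.22). No paired analysis was possible because each line had 1 array. The number of arrays limits the precision of every value.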
